A study of Homo sapiens with 2 samples.

Results

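The distal end of the long arm of human chromosome 8, band 8q24, held 336 of the 28695 H3K18la peaks listed for H1299 cells. Members were taken by position alone, as every peak on chromosome 8 that starts at 116700000 or beyond in the GRCh38 build. They were divided at the cytogenetic border between 8q24.2 and 8q24.3, which lies near the genes COL22A1 and KCNK9, into 125 peaks of gene-dense 8q24.3 and 211 peaks of gene-poor 8q24.1-q24.2. The band borders come from general knowledge of the cytogenetic map and not from the files, and each density per Mb rests on them. The border between the zones lies in a stretch without peaks (137188061 to 140237347), so its exact place within that stretch moves lengths and gene counts but no peak. The peak just inside the start of the region (116729883 to 116730223) had a fold enrichment of 2.78, and the peak just outside it (116686894 to 116687724) had 3.09. H1299 is a human non-small cell lung cancer line, and the series holds 1 chromatin immunoprecipitation library raised against lactylated lysine 18 of histone H3 and 1 input library, both from H1299 cells. No treatment or genotype separates the libraries. The labels speak of input where the design text of the series speaks of IgG, so which of these was the control of the peak calls is not settled. The analysis used 1 list of broad peaks, that of the immunoprecipitated library. Each peak in it carries a name that starts with NC, a prefix the labels leave unexplained.

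Lactylation is a modification of histone lysines that draws on lactate, the end product of glycolysis, and on lysine 18 of histone H3 it is known from promoters and enhancers of active genes. Band 8q24 is among the regions most often gained in solid tumours, lung cancer included, and carries the oncogene MYC. Its inner bands hold a few long genes and wide stretches of long non-coding RNA (lncRNA) genes around MYC, while 8q24.3, next to the telomere, is packed with short genes, among them many zinc finger genes and the LY6 family of small surface proteins. Whether 8q24 is gained in these cells was not measured here.

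Each value below comes from 1 library, so no difference was tested, and intervals cover counting error only. The fold of a peak is the ratio of the immunoprecipitated library to the peak caller's local background, averaged over the peak. A peak was placed at a gene end where it overlapped a window of 1000 bp either side of the start or end of a gene in the RefSeq table. That table gives no strand, exons or transcripts, so the 2 ends of a gene were not told apart. Exonic, intronic or untranslated positions were not assigned for the same reason. Ends are the outer bounds of each gene entry, so a transcript start inside those bounds was counted as inside the gene. Since the sequencing depth is unknown, the absence of a listed peak does not show that a gene lacks the mark. Over the whole list, a peak lay at an end of 5 of 5 mesenchymal marker genes and of 3 of 5 lung epithelial ones (NKX2-1, SFTPC and NAPSA, with none at SFTPB or SCGB1A1), beside 59.1% of all coding genes, to which the lung share is close. None of 5 blood, 4 endothelial and 3 liver markers had one.

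Peaks were denser in 8q24.3 than in the rest of 8q24, and the excess lay mainly at gene ends. Band 8q24.3 held 20.6 peaks per Mb (exact Poisson 95% interval 17.2 to 24.6) over 6.06 Mb, 8q24.1-q24.2 held 9.46 (8.23 to 10.8) over 22.3 Mb and the rest of the genome held 9.45. The density of 8q24.3 was thus 2.18 times that of 8q24.1-q24.2, which lay close to the genome's. Chromosome 19, with 25.3 peaks per Mb, was the 1 chromosome of 23 with a higher density than 8q24.3, while 9 chromosomes were denser than 8q24.1-q24.2. Peaks covered 3.55% of the bases of 8q24.3, 1.99% of 8q24.1-q24.2 and 1.46% of the rest of the genome. The bases covered were 214.9 kb in 8q24.3 and 444.4 kb in 8q24.1-q24.2.

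Where the peaks lay differed more than how many there were. In 8q24, 107 peaks (31.8%) lay at an end of a protein-coding gene, beside 37.4% of all listed peaks. The share was 52.8% in 8q24.3 (66 of 125 peaks, exact Clopper-Pearson 95% interval 43.7 to 61.8), 19.4% in 8q24.1-q24.2 (41 of 211, 14.3 to 25.4) and 37.4% in the rest of the genome. Another 37 peaks of 8q24.3 and 77 of 8q24.1-q24.2 lay inside a coding gene away from its ends. Between coding genes lay 22 peaks of 8q24.3 (17.6%), 93 of 8q24.1-q24.2 (44.1%) and 28.5% of those in the rest of the genome. Per Mb, gene-end peaks numbered 10.9 in 8q24.3 and 1.84 in 8q24.1-q24.2, a ratio of 5.93. All other peaks numbered 9.74 per Mb (7.42 to 12.6) in 8q24.3 and 7.62 (6.52 to 8.86) in 8q24.1-q24.2, a ratio of 1.28 with overlapping intervals. Inside coding genes the densities were 6.11 per Mb (4.30 to 8.42) in 8q24.3 and 3.45 (2.72 to 4.32) in 8q24.1-q24.2. That is a ratio of 1.77, with intervals that barely met. Between coding genes the densities, 3.63 per Mb (2.28 to 5.50) in 8q24.3 and 4.17 (3.37 to 5.11) in 8q24.1-q24.2, overlapped.

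**Figure D1:**
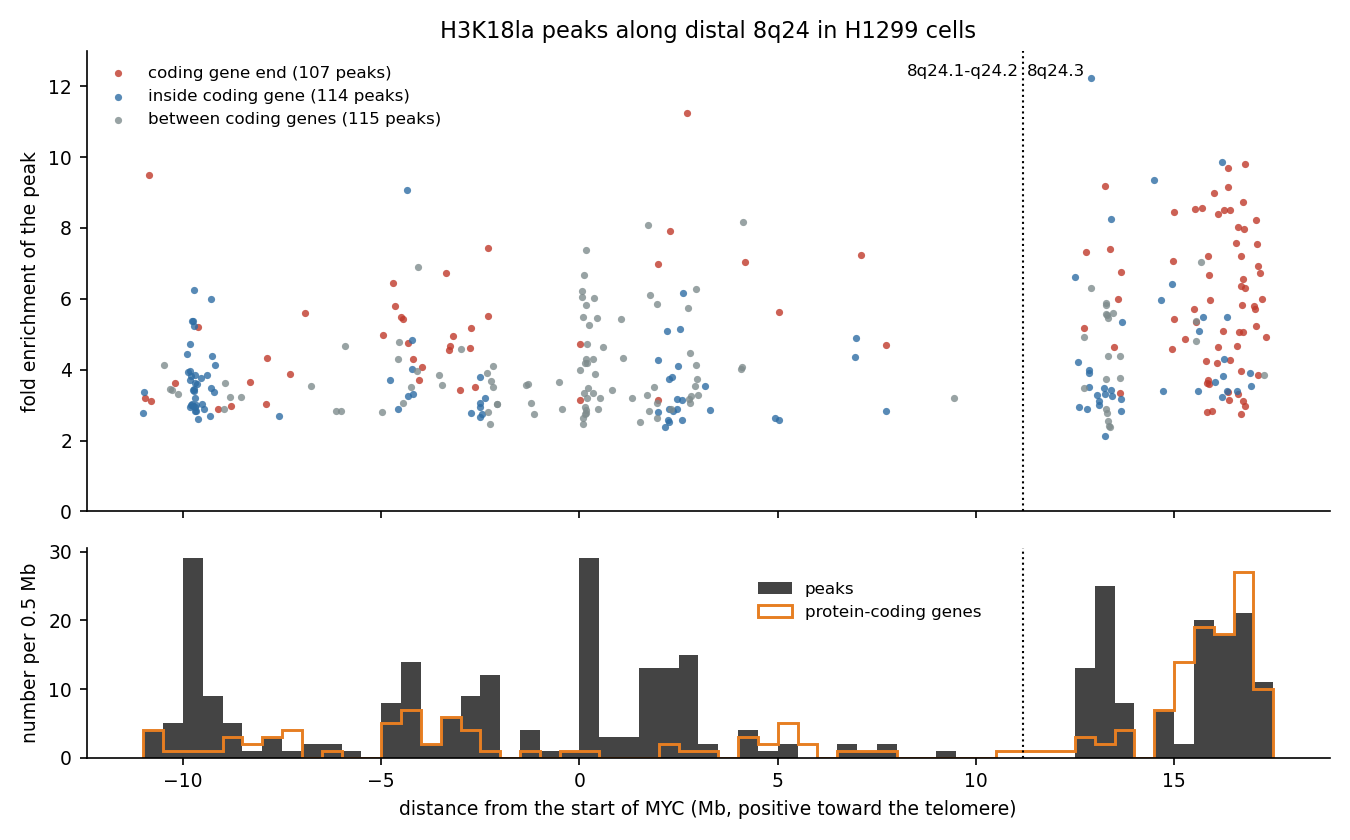
Fold enrichment of each of the 336 peaks (top, one point a peak, coloured by place) and the numbers of peaks and protein-coding genes in each 0.5 Mb (bottom), against distance from the start of MYC in Mb; the dotted line is the border between 8q24.1-q24.2 and 8q24.3. Gene-end peaks crowd the telomeric end together with the genes, while clusters inside EXT1 and beyond MYC stand where coding genes are few.

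The gene-end peaks followed the number of genes. Band 8q24.3 held 17.5 protein-coding genes per Mb and 8q24.1-q24.2 held 3.14, a ratio of 5.58, beside the ratio of 5.93 for gene-end peaks. Counted per coding gene, gene-end peaks numbered 0.623 in 8q24.3, 0.586 in 8q24.1-q24.2 and 0.539 in the rest of the genome. Peaks away from gene ends numbered 0.557 per coding gene in 8q24.3, 2.43 in 8q24.1-q24.2 and 0.901 in the rest of the genome.

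The share of genes with a peak was similar on both sides of the border. Gene-end peaks were found for 75 of 106 coding genes of 8q24.3 (70.8%, 61.1 to 79.2) and for 46 of 70 in 8q24.1-q24.2 (65.7%, 53.4 to 76.7), beside 59.1% of all 19866 coding genes. The interval of 8q24.1-q24.2 includes the share over all genes, and that of 8q24.3 lies just above it. These intervals treat genes as independent, which they are not. The strongest gene-end peaks of the 75 genes of 8q24.3 were 61 distinct peaks, and 33 of the genes shared theirs. The small distance from the share over all genes is thus not a separation. Some peaks lay at several genes: 20 of the 66 gene-end peaks of 8q24.3 (30.3%) and 9 of the 41 in 8q24.1-q24.2 (21.95%) lay at ends of more than 1 coding gene. In the rest of the genome 20.04% did. The median length of coding genes was 9776 bp in 8q24.3, 62976.5 bp in 8q24.1-q24.2 and 24526.5 bp in the rest of the genome. Of lncRNA genes, 22 of 59 in 8q24.3 (37.3%, 25.04 to 50.9) and 23 of 127 in 8q24.1-q24.2 (18.1%, 11.8 to 25.9) had a peak at an end, beside 23% of all lncRNA genes. Many of these peaks also lay at a coding gene end, as at CASC11 and MYC, and cannot be given to the lncRNA gene. At a lncRNA end and no coding gene end lay 13 peaks of 8q24.3 and 11 of 8q24.1-q24.2.

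**Figure D2:**
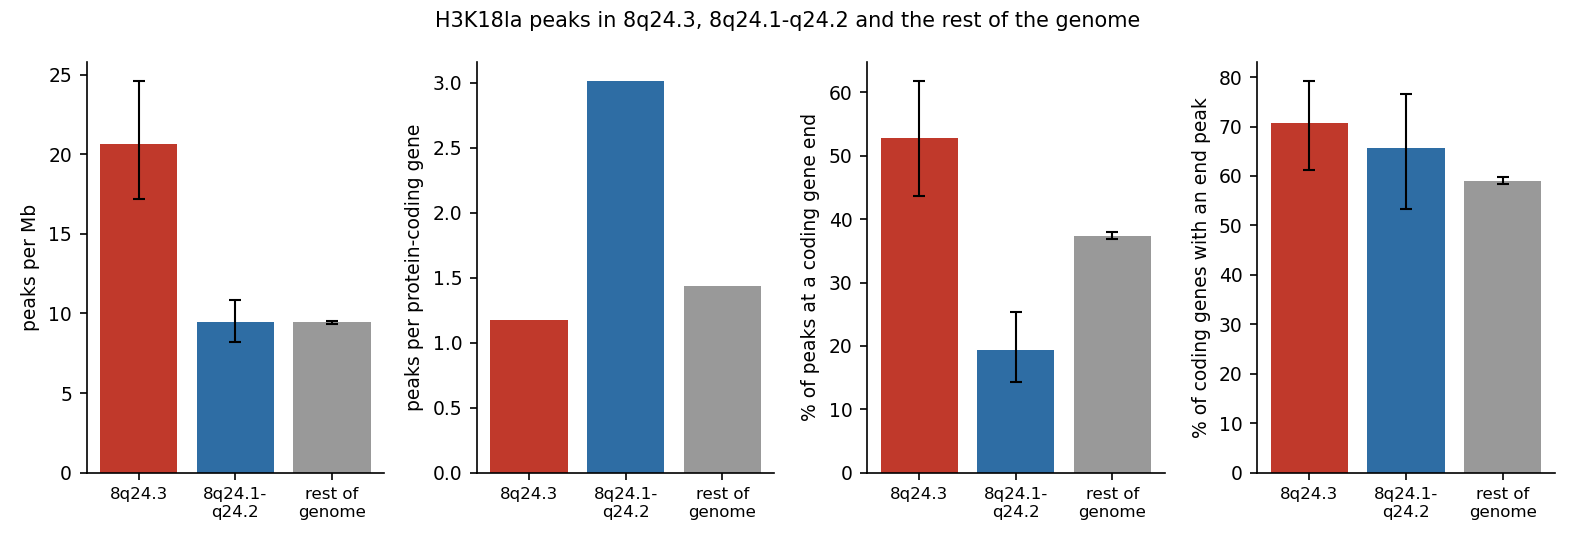
Peaks per Mb, peaks per protein-coding gene, percent of peaks at a coding gene end and percent of coding genes with a peak at an end, for 8q24.3, 8q24.1-q24.2 and the rest of the genome, with exact 95% counting intervals as error bars where shown. Peaks per coding gene were 1.18 in 8q24.3, 3.01 in 8q24.1-q24.2 and 1.44 in the rest of the genome, the reverse order of peaks per Mb in 8q24.

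Peaks of 8q24.3 were also stronger. Their median fold was 5.06 (order-statistic 95% interval 4.31 to 5.48), against 3.61 (3.44 to 3.84) in 8q24.1-q24.2 and 4.37 in the rest of the genome. At coding gene ends the median was 5.81 in 8q24.3, 4.72 in 8q24.1-q24.2 and 5.46 in the rest of the genome, and inside genes it was 3.54 in 8q24.3, 3.36 in 8q24.1-q24.2 and 3.89 in the rest of the genome. Between coding genes it was 4.60 (3.49 to 5.56) in 8q24.3, 3.54 (3.35 to 3.90) in 8q24.1-q24.2 and 3.92 in the rest of the genome. The intervals of the zones overlapped within each place, being 5.08 to 6.74 in 8q24.3 and 4.07 to 5.48 in 8q24.1-q24.2 at gene ends, and 3.39 to 4.21 in 8q24.3 and 3.02 to 3.71 in 8q24.1-q24.2 inside genes. Folds of 10 or more were seen in 1 peak of 8q24.3, 1 of 8q24.1-q24.2 and 2.96% of peaks in the rest of the genome. Median widths were 1386 bp in 8q24.3 and 1376 bp in 8q24.1-q24.2. Widths of at least 5000 bp were reached by 4 peaks of 8q24.3 (3.2%), 18 of 8q24.1-q24.2 (8.53%) and 2.37% of peaks in the rest of the genome.

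Many peaks of the gene-poor zone were of low significance. A -log10 q of at least 5, where q is the caller's p-value after correction for multiple testing, was reached by 105 of 125 peaks in 8q24.3 (84.0%), 115 of 211 in 8q24.1-q24.2 (54.5%) and 63.2% in the rest of the genome. Counting those peaks alone, 8q24.3 held 17.3 per Mb, 8q24.1-q24.2 held 5.16 and the rest of the genome held 5.98. At that level 57.1% of the peaks of 8q24.3 and 29.6% of those of 8q24.1-q24.2 lay at a coding gene end. Peaks away from gene ends were thus also denser in 8q24.3 at that level, by more than the ratio of 1.28 over all peaks. The median -log10 q was 14.5 in 8q24.3, 5.65 in 8q24.1-q24.2 and 7.03 in the rest of the genome.

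The background behind the peaks moved with these values. The control level of each peak was solved from its fold and p-value under the caller's Poisson model, in scaled reads, and is approximate because broad-peak values are averages. Its median was 7.02 in 8q24.3 (quartiles 5.91 and 8.02), 5.27 in 8q24.1-q24.2 (4.23 and 6.83) and 3.81 in the rest of the genome. No chromosome of the 23 had a median above that of either zone, their range being 2.64 to 5.27, with the highest just under 8q24.1-q24.2. The rest of chromosome 8 had a median of 4.47. At coding gene ends the zones had like levels, 7.19 in 8q24.3 and 7.31 in 8q24.1-q24.2, against 4.42 in the rest of the genome. Inside genes the level was 6.72 in 8q24.3, 4.81 in 8q24.1-q24.2 and 3.51 in the rest of the genome. Since the level is solved from fold and p-value, it is not independent of the significance of the same peak. The part of the control level in the density, fold and significance of listed peaks was not tested.

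**Figure D3:**
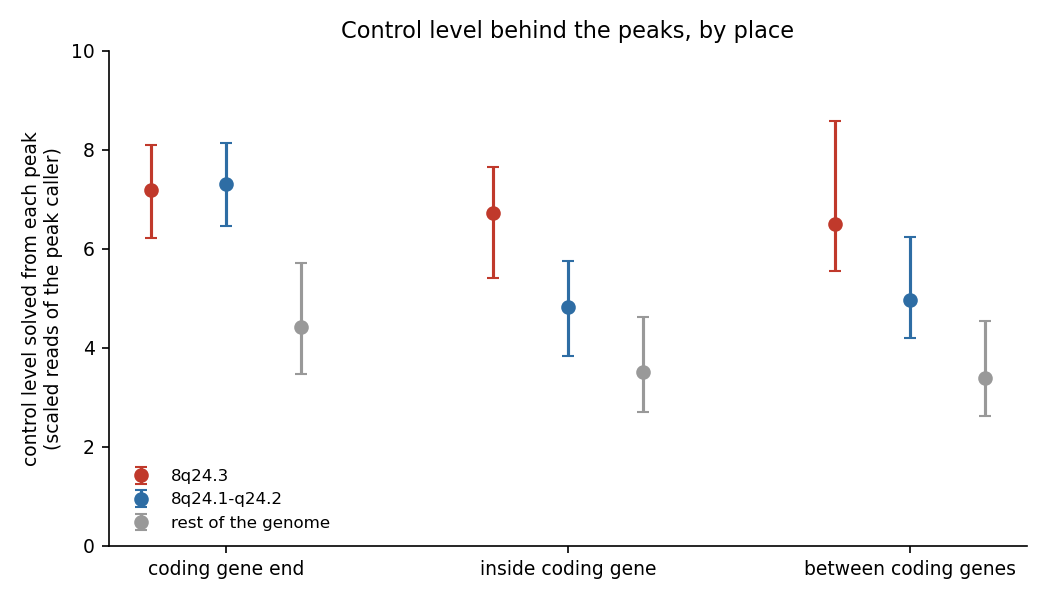
Median control level solved from each peak (points) with quartiles (bars), in scaled reads of the peak caller, by place, for 8q24.3, 8q24.1-q24.2 and the rest of the genome. The zones had 7.19 and 7.31 at coding gene ends, and 8q24.3 lay above 8q24.1-q24.2 inside and between genes.

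Within 8q24.1-q24.2 the peaks were unevenly spread, and not in step with the coding genes. From the centromere side to the telomere, band 8q24.11 held 40 peaks (25 per Mb), 8q24.12 held 20 (6.25), 8q24.13 held 54 (11.3), 8q24.21 held 71 (17.3), 8q24.22 held 23 (4.60) and 8q24.23 held 3 (0.833). The densest of them, 8q24.11, had 31 of its 40 peaks inside coding genes and 5 at their ends, and EXT1 alone held 27 of the 40. Its 17 peaks with a -log10 q of at least 5 came to 10.6 per Mb, against 17.3 in 8q24.3, so that its higher density over all peaks (25 against 20.6 per Mb) did not hold at that level. Band 8q24.21, which carries MYC, had 1.46 coding genes per Mb, and 49 of its 71 peaks lay between coding genes. In 8q24.13, the band of ATAD2, SQLE and TRIB1, 19 of 54 peaks lay at coding gene ends, and 22 of its 26 coding genes had one. Median fold ran from 3.43 in 8q24.11 through 3.52, 3.87, 3.50 and 4.08 to 3.19 in 8q24.23, each below the 5.06 of 8q24.3.

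**Figure D4:**
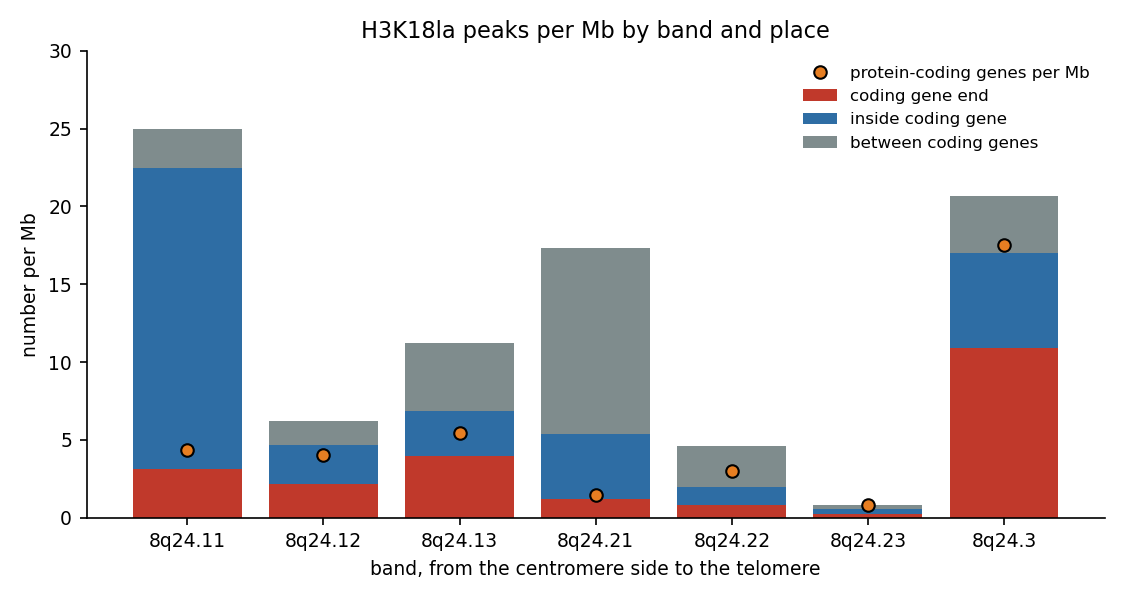
Peaks per Mb in each band of 8q24 from the centromere side to the telomere, stacked by place (coding gene end, inside a coding gene, between coding genes), with protein-coding genes per Mb as orange points. Bands 8q24.11 and 8q24.21 have tall bars over low gene densities of 4.38 and 1.46 per Mb, made mostly of peaks inside or between coding genes.

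Peaks far from any coding gene end made up a larger share in the gene-poor zone. Coding genes are also sparser there, with 3.14 per Mb against 17.5 in 8q24.3. The share of bases at such distances was not computed, so the shares of peaks below have no baseline from gene spacing. Over 50000 bp from the nearest end of a coding gene lay 10 peaks of 8q24.3 (8%, 3.90 to 14.2), 55.5% of the 211 peaks of 8q24.1-q24.2 (48.5 to 62.3) and 20.7% of those in the rest of the genome. Over 100000 bp away lay 6 peaks of 8q24.3 (4.80%), 79 of 8q24.1-q24.2 (37.4%) and 10.8% of those in the rest of the genome. Part of the count lay in long genes: 22 of these peaks of 8q24.1-q24.2 lay inside EXT1 and 47 inside any coding gene, while another 22 lay inside the lncRNA gene PVT1. Far peaks with a -log10 q of at least 5 numbered 6 in 8q24.3 (5.71% of its peaks at that level), 60 in 8q24.1-q24.2 (52.2%) and 14.8% in the rest of the genome.

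The far peak of highest fold lay in the lncRNA gene CCDC26 at 129459228 to 129460948, with 8.07-fold over 1721 bp, 244487 bp from the nearest coding gene end, that of GSDMC. Next came peaks of 7.39-fold (127904568 to 127913980) and 6.67-fold (127850531 to 127856692) inside PVT1, and a peak of 6.29-fold and 5205 bp nearest to the adenylate cyclase gene ADCY8 (130671251 to 130676455). A peak of 6.25-fold lay inside EXT1. In 8q24.3 the highest were 6.63-fold inside TRAPPC9, a subunit of a membrane trafficking complex (140237348 to 140239298), and 5.45-fold nearest to PTK2 (141057968 to 141060413).

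EXT1, which encodes a glycosyltransferase that builds heparan sulfate chains, had 27 peaks over its 317 kb (117794490 to 118111826). Among coding genes of the whole genome only RAD51B, with 34, had more, and the next gene, GPHN, had 24. The EXT1 peaks were of modest height, from 2.62- to 6.25-fold with a median of 3.596, and 11 of 27 reached a -log10 q of 5. They summed to 74998 bp, and peaks covered 23.2% of the gene. Within it, 20 peaks lay no more than 10000 bp apart in a stretch of 127616 bp (117908463 to 118036078), the largest count among 347 such stretches of at least 5 peaks in the genome. That stretch depended on peaks of low significance and on the joining distance: it fell under 5 joined peaks when a -log10 q of at least 5 was asked for, and held 9 peaks over 38023 bp when only peaks up to 5000 bp apart were joined. Its widest peak, 20699 bp at 5.36-fold (117938929 to 117959627), was the widest of 8q24. The control level in EXT1, 4.20, was below the 5.27 of its zone over all places and the 4.81 of its zone inside coding genes. It was above the 3.51 of peaks inside coding genes in the rest of the genome.

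Next to EXT1, SAMD12 had 11 peaks over 490.1 kb with folds from 2.70 to 5.996, and 2.89 at its end. PVT1, the lncRNA gene beside MYC, had 22 peaks over 306.7 kb with folds from 2.46 to 7.39, 1 of them 13889 bp wide (6.05-fold). The whole space between MYC and GSDMC, 1962 kb without another coding gene, held 43 peaks, of which 31 lay in lncRNA genes. The lncRNA gene LOC124902020 there had a peak of 19793 bp at its end (5.47-fold, 128167010 to 128186802). Of the 14 genes listed around MYC, 4 coding and 10 lncRNA genes, 5 had a peak at an end, beside 59.1% of all coding and 23% of all lncRNA genes. They were MYC and CASC11, which shared one of 4.72-fold, PVT1, CCDC26 and GSDMC. No listed peak lay at an end of POU5F1B, LRATD2, CCAT1, CCAT2, CASC8, CASC19, CASC21, PCAT1 or PRNCR1.

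Stretches of at least 5 peaks no more than 10000 bp apart numbered 5 in 8q24 (0.176 per Mb), against 342 in the rest of the genome (0.114 per Mb). The 4 others besides EXT1 were both PVT1 stretches of 9 and 5 peaks, 1 of 7 peaks over GSDMC and the neighbouring CCDC26, and 1 of 8 peaks in 8q24.3. GSDMC encodes a pore-forming gasdermin. The stretch in 8q24.3 (141000095 to 141043292) began at the end of PTK2, at 141002079, and ran on beyond the gene. PTK2 encodes focal adhesion kinase, which signals from integrins. The 126.5 kb between PTK2 and DENND3 held 12 peaks, none at a coding gene end, with a median of 4.06-fold. DENND3, an activator of a Rab GTPase, followed with a gene-end peak of 5325 bp and 7.39-fold (141126544 to 141131868).

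Most of the 10 coding genes of 8q24.3 with the highest fold at an end shared that peak with a neighbour. Shared peaks fill several places in a ranking of genes, and 30.3% of all gene-end peaks of 8q24.3 were shared. The next peaks, at MAFA (8.56-fold) and GLI4 (8.53-fold), lay at no second coding gene. ARHGAP39 and C8orf82 shared a peak of 9.81-fold (144528429 to 144529193, 765 bp). MAF1, a repressor of RNA polymerase III transcription, and SHARPIN, a subunit of the linear ubiquitin ligase complex, shared one of 9.69-fold (144103189 to 144105363). PTK2 followed with 9.19-fold (141000095 to 141003771), and CYC1, a cytochrome subunit of mitochondrial respiratory complex III, with 9.15-fold (144095051 to 144096007). FAM83H, which organises keratin filaments, and IQANK1 shared 8.99-fold, and TMEM276 with its readthrough gene TMEM276-ZFTRAF1 and the kinesin gene KIFC2 shared 8.72-fold. A peak at the ends of several genes cannot be given to 1 of them.

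In 8q24.1-q24.2 the strongest gene-end peaks lay at genes that stand apart. ASAP1, which encodes an Arf GTPase-activating protein of focal adhesions, had 11.2-fold (130442088 to 130447043, 4956 bp) with the highest -log10 q of 8q24, 78.3. RAD21, the cohesin subunit that closes the ring around sister chromatids, had 9.50-fold (116873557 to 116875372). CYRIB, a Rac-binding inhibitor of actin branching, had 7.91-fold and TRIB1, a pseudokinase adaptor of a ubiquitin ligase, had 7.44-fold. None of these 4 peaks lay at the end of a second coding gene. Lower came the zinc finger gene ZFAT (7.25-fold), EFR3A, which anchors a lipid kinase at the plasma membrane (7.05-fold), GSDMC (6.97-fold over 7289 bp), TMEM65 (6.74-fold), DERL1, of endoplasmic reticulum protein disposal (6.44-fold), and TBC1D31 (5.79-fold).

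The peak of highest fold in all of 8q24 lay at no outer bound of a coding gene. It had 12.2-fold and a -log10 q of 73.9 at 140633829 to 140636572, inside AGO2, the argonaute that cleaves targets of small RNAs, and at the end of the lncRNA gene ERICD. AGO2 (140520156 to 140642313) had 5 peaks in its body and none in the windows at its ends. Without transcripts, whether the 12.2-fold peak covers a start of an AGO2 transcript could not be told. PLEC, which encodes plectin, a linker of intermediate filaments, held the widest peak of 8q24.3, 18947 bp at 9.85-fold (143935321 to 143954267). Peaks covered 42.1% of PLEC, and its gene-end peak, shared with PARP10, had 5.08-fold. Other strong peaks inside the outer bounds of genes were 9.34-fold in TSNARE1 (142233821 to 142237143) and 9.07-fold in ATAD2, a bromodomain ATPase (123395134 to 123397306). The outer end of ATAD2 had 4.75-fold, in a peak shared with NTAQ1. Whether the inside peaks of TSNARE1 and ATAD2 lie at a transcript start could not be told.

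Gene groups by function had unlike shares. Of the genes in 10 lists, 137 were found in 8q24. No gene of the region carried the symbols TRPS1 or TRMT12, and both were left out of the counts. All coding genes with a gene-end peak in the genome had a median fold of 5.66, and the share with one was 59.1%. Values below are the number of listed genes with a gene-end peak and the median fold of that peak, with shared peaks counted for each gene.

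Zinc finger and homeobox factors had a peak in 15 of 15 genes (exact 95% interval 78.2% to 100%), with a median of 5.79-fold. They ranged from 8.53-fold at GLI4 and 8.24-fold at ZNF517 to 2.84-fold at ZNF707, and 11 of the 15 lie in 8q24.3. Genes of chromosome maintenance and replication had one in 9 of 10 (55.5% to 99.7%, median 6.32-fold), and 6 of the 9 shared it with another coding gene. Among them were RAD21 and CHRAC1 at 7.33-fold. The replication fork repair gene TONSL had 6.36-fold, shared with VPS28, and the helicase gene RECQL4 had 6.32-fold, shared with LRRC14. The list also holds BOP1, which is known for ribosome biogenesis, at 7.58-fold. The exception was the mitochondrial topoisomerase gene TOP1MT, with 3.39-fold inside the gene. Transcription and chromatin regulators had one in 9 of 10 (median 5.64-fold). MAFA had 8.56-fold, and the heat shock factor gene HSF1 shared the 7.58-fold peak of BOP1. The Mediator gene MED30 had 3.63-fold, and the TFIID gene TAF2 had 3.02-fold in a peak shared with DSCC1. None was listed at FOXH1.

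Of genes of RNA processing and translation 10 of 12 had a gene-end peak (median 4.45-fold). Folds ran from 7.22 at the elongation factor gene EEF1D, shared with TIGD5, to 3.20 at EIF3H and UTP23, which share a peak. The list also holds DERL1, named above for protein disposal. AGO2 and the exosome gene EXOSC4 had a peak inside the gene and none within 1000 bp of an end. Whether those inside peaks lie at transcript starts could not be told, so both absences rest on the outer gene bounds. A peak of 6.32-fold (140645034 to 140646984) lay between AGO2 and PTK2 and falls within the wider window of 3000 bp at the AGO2 end. Adhesion, cytoskeleton and polarity genes had one in 11 of 13 (median 6.74-fold), led by ASAP1, PTK2 and FAM83H. The polarity gene SCRIB had 4.18-fold in a peak shared with PUF60, and EPPK1 had none. Metabolic enzymes had one in 10 of 16 (35.4% to 84.8%; median 5.06-fold). Besides CYC1 they include the fucose pathway gene GFUS at 6.68-fold and the cholesterol synthesis gene SQLE at 5.18-fold. NDUFB9 of respiratory complex I had 4.94-fold in a peak shared with TATDN1. The alanine transaminase gene GPT was counted for a 7.98-fold peak that lay outside the gene and was shared with SLC33A2. The hyaluronan synthase gene HAS2, the lysophospholipase D gene ENPP2, ST3GAL1 and the adrenal steroid genes CYP11B1 and CYP11B2 had none listed. Signalling regulators had one in 10 of 15 (median 4.92-fold), with SHARPIN, the pseudokinase gene NRBP2 at 8.38-fold and TRIB1 on top. None was listed at DEPTOR, an inhibitor of mTOR, or at NDRG1, CCN4, MAPK15 and SLA.

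LY6 family genes and tissue-restricted genes stood low. Of 13 LY6 family genes, all in 8q24.3, 4 had a gene-end peak (9.09% to 61.4%), namely LY6K at 7.07-fold, SLURP1 at 5.44-fold with the peak outside the gene, LY6E at 4.87-fold and PSCA at 4.59-fold in a peak shared with JRK. Of 19 neural and other tissue-restricted genes 4 had one (6.05% to 45.6%), with a median of 3.42-fold. These were TMEM71 at 5.64-fold, shared with PHF20L1, ANXA13 at 3.71-fold, AARD at 3.12-fold and SAMD12. The potassium channel genes KCNQ3 and KCNK9, the synaptic gene ARC, the collagen gene COL22A1, the thyroglobulin gene TG and the zinc transporter gene SLC30A8 of insulin granules had no peak at an end or inside. The upper bound for the tissue-restricted genes lay below the 59.1% of all coding genes, while that of the LY6 family lay just above it. All lists were written with earlier results of these data known, so such bounds are descriptive and test neither these groups nor the others.

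**Figure D5:**
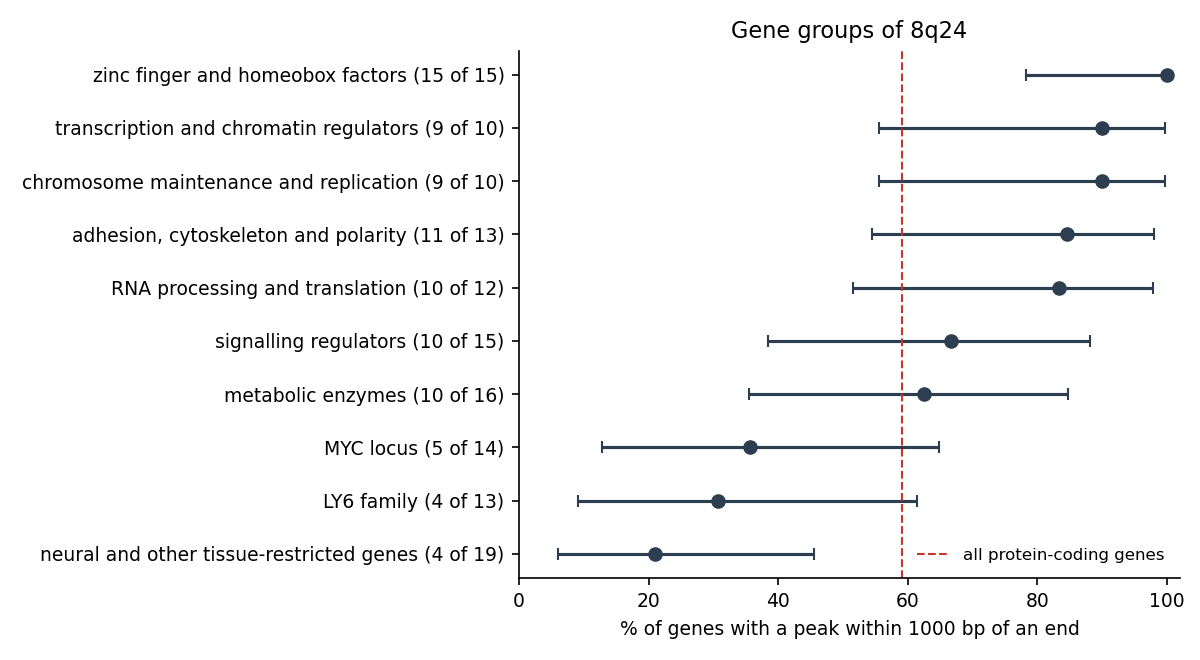
Percent of genes of each group with a peak within 1000 bp of an end (points) and exact 95% intervals (bars), with the number of genes in the label; the dashed line marks the 59.1% of all protein-coding genes, which is not the measure for the MYC locus, where 10 of 14 genes are lncRNA genes (23% over the genome). Zinc finger and homeobox factors (15 of 15) stand at the top, and tissue-restricted genes (4 of 19) at the bottom.

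Long stretches without a listed peak held many of these genes. The longest in 8q24 ran 3049.29 kb across the border of the zones (137188061 to 140237347) and held FAM135B, COL22A1, KCNK9 and part of TRAPPC9. This stretch was singled out after its values were seen. It took up the end of 8q24.1-q24.2 and the start of 8q24.3, and its parts in each zone were not ranked. Of stretches wholly within 8q24.3 the longest were 815.3 kb with C8orf90 (141418473 to 142233820) and 278.1 kb with SLURP1, LYPD2, LYNX1, SLURP2, LY6D, GML, CYP11B1 and CYP11B2 (142739992 to 143018063). A further 227.3 kb held LY6S, LY6L, LY6H and GPIHBP1, and 215.6 kb held ARC. Wholly within 8q24.1-q24.2 the longest were 1908.8 kb with TG, SLA, CCN4, NDRG1 and ST3GAL1 (132775924 to 134684744) and 1718.3 kb with part of KHDRBS3 and no whole coding gene (135466909 to 137185172). The median stretch between neighbouring peaks was 13.2 kb in 8q24.3 and 26.3 kb in 8q24.1-q24.2. The border peaks of these zones were of unequal height, with 6.63-fold for the first of 8q24.3 and 3.19-fold for the last of 8q24.1-q24.2.

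Among lncRNA genes with a gene-end peak that lay at no coding gene end, ERICD led 8q24.3. LOC124902040, inside PLEC, shared its 9.85-fold peak, and MAFA-AS1 had 7.04-fold (143407471 to 143408075). In 8q24.1-q24.2 the highest were PVT1 at 6.23-fold (127793948 to 127797396), LOC124902026 at 6.17-fold and LOC124902020 at 5.47-fold. Such peaks numbered 13 in 8q24.3 (10.4%, 5.65 to 17.1), 11 in 8q24.1-q24.2 (5.21%, 2.63 to 9.14) and 6.50% of peaks in the rest of the genome, with overlapping intervals in 8q24.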

How the data were processed

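H3K18la chromatin from H1299 cells and an input were sequenced as 1 library each, and only the immunoprecipitated library's peak list was analysed. The submitters' processing notes name bcl2fastq 2.17, cutadapt 1.18, Trimmomatic 0.38, Bowtie2 2.3.4.1, Picard, MACS2 2.1.2 and 2.1.0, ChIPseeker and hg38. Settings are not given in the sources used here. The deposited values of each broad peak are the fold enrichment (a ratio to the caller's local background), -log10 p, -log10 q and a score that equals 10 times -log10 q within rounding for 99.98% of peaks. The largest deposited q-value was 0.0472. The list has no header and gives no read counts.

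Peaks were set against RefSeq genes of GRCh38.p14, of which 58961 of 59792 entries were placed and 831 on alternate or unlocalised sequences were left out. Chromosome lengths were taken to the last gene or peak end, without masking gaps. Python 3.11.15, numpy 2.4.6, pandas 2.3.3, scipy 1.17.1 and matplotlib 3.10.9 were used. The procedures were checked on simulated data.

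Named genes were list members and, in each zone, those with the 10 highest folds at an end, the 5 widest peaks, the 3 stretches with most peaks, the 5 highest far peaks, the 5 longest stretches without a peak and the 5 highest lncRNA ends. RAD51B, GPHN, the ATAD2 and TSNARE1 body peaks, and neighbours of a peak, were named after their values were seen. Members and lists were chosen with earlier results of these data known. Alternatives were a -log10 q of at least 5, windows of 3000 bp, midpoints in the window, other zone borders, merged peaks and other joining distances. Leaving out peaks over EXT1 or PVT1 was added after seeing the data.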

Additional observations from a re-analysis of the deposited data

How the results depend on the processing

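Over 51 alternatives for 11 results, 39 values stayed within the counting interval or, for the count of stretches, within 1.5 times it, and 12 moved. Band 8q24.3 stayed above 8q24.1-q24.2 in peaks per Mb, percent of bases under peaks, percent of peaks at a coding gene end, percent of coding genes with one and median fold under every setting run. With a -log10 q of at least 5, 8q24.1-q24.2 had 5.16 peaks per Mb, 1.56% of bases under peaks, 29.6% of peaks at a coding gene end and a median fold of 4.57. With the border 3 Mb nearer the telomere, 8q24.3 had 25.9 peaks per Mb, 4.39% of bases under peaks and 73.4% of peaks at a coding gene end. Without the peaks over EXT1 or PVT1, an alternative chosen after seeing the data, 8q24.1-q24.2 had 7.26 peaks per Mb and 1.32% of bases under peaks. Stretches of at least 5 peaks numbered 3 with peaks up to 5000 bp apart joined, 14 with 20000 bp and 2 among peaks whose -log10 q was 5 or more, against 5. The 2 were in PVT1 and from the end of PTK2 outward, so the EXT1 stretch was among those lost. The smaller counts follow from fewer or less joined peaks, and the other causes were not tested. With 1 library, no value has a replicate check, and the unknown depth limits what a missing peak shows. No paired analysis was possible because each group holds 1 library.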

Other observations

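MicroRNA genes of 8q24 had a peak within 1000 bp of an end in 5 of 17 cases in 8q24.3 and 2 of 18 in 8q24.1-q24.2, beside 13.9% of all microRNA genes. In 8q24.3 these were MIR661 in the wide PLEC peak (9.85-fold), MIR4664 in the FAM83H peak (8.99-fold), MIR10400 (6.56-fold), MIR6847 (5.48-fold) and MIR6850 in the peak of the ribosomal protein gene RPL8 (5.24-fold). In 8q24.1-q24.2 they were MIR3610 in the RAD21 peak (9.50-fold) and MIR1204 in the peak at the PVT1 end (6.23-fold). A microRNA gene is shorter than these peaks, so the peak cannot be given to it rather than to the host gene. No peak was listed at MIR30B, MIR30D or MIR151A. Genes classed as pseudogenes had a peak in 2 of 16 in 8q24.3 and 0 of 65 in 8q24.1-q24.2, beside 2.93% of all, and transcribed pseudogenes in 1 of 5 in 8q24.3, beside 19.1% of all. Of snoRNA genes, 0 of 2 in 8q24.3 and 1 of 7 in 8q24.1-q24.2 had one, beside 8.89% of all, and the 1 tRNA gene of 8q24.1-q24.2 had one, beside 55.7% of all.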
